A study of Mus musculus with 8 samples.

Results

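The 61 genes described here encode proteins of the cytosolic ribosome and were read in cultured murine aortic VSMCs, that is, smooth muscle cells of the vessel wall. Of these genes 38 belong to the large and 23 to the small subunit, out of 24704 genes with a symbol. They were taken by name: a symbol of Rpl or Rps and digits with an optional final a, x or l, or Rplp0, Rplp1, Rplp2 and Rpsa, without names that mark a pseudogene or an S6 kinase. The reference gene table held 83 such symbols, and those with no probe set here were not analysed. A further 5 probe sets carried an Entrez identifier of such a gene but no symbol in the platform table. They are kept apart, without names. Among the 61 genes, Rpl6l and Rps4l are listed as pseudogenes by RefSeq.

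Total RNA was hybridised to 8 single-colour arrays, 4 per group. The control cultures received the adenovirus titled AdPl and are labelled Control. The other cultures received the adenovirus titled AdN5 and are labelled NFAT5 overexpression. NFAT5, a Rel-family protein, switches on genes that let cells cope with hypertonic surroundings. Both groups were grown in serum-containing medium, were exposed to virus for 24 h, and then received cholesterol at 10 µg/ml for 72 h. All values thus come from infected, cholesterol-loaded cells, with no uninfected or unloaded cells beside them. The sources used here give no promoter for the transgene. They also do not say whether replicates were separate cultures, so the p-values reflect sample-to-sample spread that could be technical.

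The transcript of Nfat5 did not follow the label. Its log2 level was 7.16 ± 0.089 (SD, n = 4) in the control arrays and 6.97 ± 0.072 (SD, n = 4) in the arrays labelled NFAT5 (log2 fold change -0.19 ± 0.078 SE, limma adjusted p = 0.360). Where its probes lie is not given in the sources used here. Every direction below is drawn from the labels, as the NFAT5-labelled minus the control arrays. Of 12 smooth muscle markers 9 were at or above an array's median probe set, while Myocd, Des and Mylk lay below it. The brightest was Acta2, the smooth muscle actin gene (12.04 in the control arrays). None of the 12 was called, and 4 had an unadjusted p under 0.05, 1 higher and 3 lower (12.5% of all genes). Fold changes were above 0 for 5 of the 12 and below 0 for 7. Groups were separate for 3 (8.78% of all genes), Cnn1 higher and Acta2 and Mylk lower. The log2 fold change was -0.30 ± 0.071 (SE, limma adjusted p = 0.113) for Acta2 and 0.33 ± 0.12 (SE, limma adjusted p = 0.296) for Cnn1. The summed log2 level of 12 macrophage markers was 71.0 to 72.95 on the control arrays and 75.7 to 77.9 on the NFAT5-labelled arrays, and 1 of the 12 was below the array median. All 12 had a higher mean in the NFAT5-labelled arrays, 8 with an unadjusted p under 0.05 (6.24% of all genes, higher). Of the 12, 3 passed the threshold (Adgre1, Laptm5 and Cd68), where 0.364% of all genes were called higher. The summed level of 12 fibroblast markers was 81.1 to 81.4 on the control and 76.4 to 78.8 on the NFAT5-labelled arrays, with 2 of the 12 below the array median. Of these 12, 1 passed the threshold, Ly6c1, lower and itself dim (mean level 3.42), where 0.413% of all genes were called lower. Fold changes were below 0 for 9 of them and above 0 for 3, and 5 had an unadjusted p under 0.05, all lower (6.29% of all genes). Of 8 endothelial markers 0 passed, and 2 had an unadjusted p under 0.05, 1 higher and 1 lower (12.5% of all genes). The labels name smooth muscle cells only, and which cells carried these marker transcripts was not tested. In bulk RNA, a change in the number of cells of a type and a change in RNA per cell cannot be told apart. How far these marker differences bear on the values of the ribosomal protein genes was not tested.

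The cytosolic ribosome translates all nuclear-encoded messages. Its small subunit reads the codons, and its large subunit joins amino acids and holds the tunnel through which the new chain leaves. Each protein is made in step with the others, and unassembled copies are degraded. The messages of these genes begin with a C and a run of pyrimidines at their 5′ end, the terminal oligopyrimidine tract, through which mTORC1 and the RNA-binding protein LARP1 set how strongly they are translated. That control acts on translation, which an array does not measure.

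Start-site sequences were available from RefSeq (GRCm38.p6) for 47 of the 61 genes. Those below are shown because they display the tract, or its absence at the annotated start, in members described below. Each runs 5′ to 3′ on the strand of the gene, from 15 bases before to 15 bases after the annotated start. Capitals mark a C followed by at least 4 pyrimidines that begins within 5 bases of the start.
Rpl27a (chr7:109519180-109519209, + strand): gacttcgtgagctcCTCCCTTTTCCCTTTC
Rps27 (chr3:90213634-90213663, - strand): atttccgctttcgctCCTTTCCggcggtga
Rps9 (chr7:3704026-3704055, + strand): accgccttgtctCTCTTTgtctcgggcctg
Rpl4 (chr9:64173372-64173401, + strand): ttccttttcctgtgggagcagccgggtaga
Rpl27 (chr11:101442230-101442259, + strand): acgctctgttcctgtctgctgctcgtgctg
Rpl6 (chr5:121204486-121204515, + strand): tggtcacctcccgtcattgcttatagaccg
The first 3 carry the tract, of 16 bases in Rpl27a within the window, and the windows of Rpl4, Rpl27 and Rpl6 do not at the annotated start.

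Over all members, 20 of 59 start windows (33.9%) held the tract within 5 bases of the start, against 18.3% of all 32851 windows in the table and 17 of 73 (23.3%) of mitochondrial ribosomal protein genes. With the C at the first annotated base, 8 of the 59 did, against 2.51% of all, and 0 of the 73 mitochondrial windows. Other motifs were searched on both strands of the 300 bases from 250 before to 50 after the start. The motif CCGGAAG, which ETS factors such as GABP bind, was in 28.8% of the members' windows, 32.9% of the mitochondrial ones and 8.86% of all. For AAGATGGC, of the YY1 kind, these shares were 10.2%, 16.4% and 2.75%. The letters TGGAAA, the core of the element that NFAT5 binds, were in 5 of the members' windows (8.47%), against 17.8% of the mitochondrial ones and 21.4% of all. CCGGAAG and TGGAAA share the letters GGAA. A match is a description of these letters and not of binding.

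No gene of the cytosolic ribosome passed the test between the groups. Of the 61 genes 0 were called at a limma adjusted p under 0.05, where 0.777% of all 24704 genes were called. For a list of this size 0 calls is near that share. The lowest adjusted p among the 61 was 0.185. At an unadjusted p under 0.05 there were 6 (4 with a higher and 2 with a lower mean in the NFAT5-labelled arrays), all of the large subunit, where the share over all genes was 12.5% (6.24% higher and 6.29% lower). The values of the groups did not overlap for 4 genes (3 higher and 1 lower), against 8.78% of all genes. Log2 fold changes ran from -0.88 to 0.56, with 32 above 0, where 51% of all genes were, and 29 below. The median was 0.028 in the large subunit and 0.00031 in the small subunit, beside 0.0042 over all genes. Quantile normalisation gives every array the same distribution, so a shift shared by all genes would not show in these values.

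**Figure D1:**
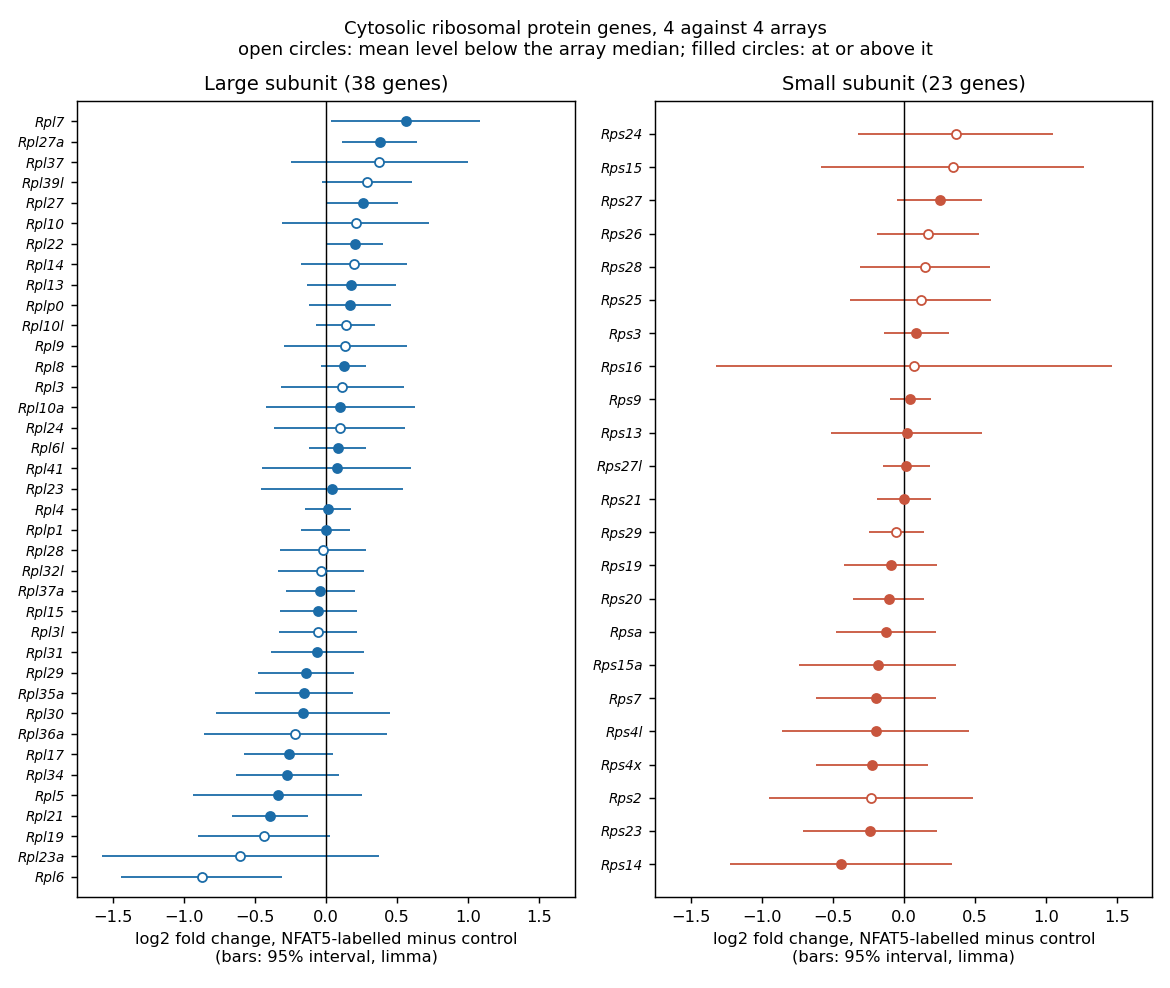
Log2 fold change of each ribosomal protein gene, NFAT5-labelled minus control (x axis), with the 95% interval from limma, for the 38 large and 23 small subunit genes (y axis, ordered by value). Open circles mark genes with a mean level under that of an array's median probe set; the intervals of 6 large subunit genes and 0 small subunit genes exclude 0 before adjustment, and those of Rps16 and Rpl23a are the widest.

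The mean level of each subunit's genes, which can be followed across arrays but not set against the other subunit's, overlapped between the groups. The mean log2 level of the 38 large subunit genes was 4.78, 4.72, 4.83 and 4.71 on control replicates 1 to 4 and 4.71, 4.69, 4.75 and 4.84 on NFAT5 replicates 1 to 4. For the 23 small subunit genes it was 4.66, 4.51, 4.52 and 4.53 on the control arrays and 4.55, 4.56, 4.61 and 4.41 on the NFAT5-labelled arrays. NFAT5 replicate 4 held both the highest large subunit mean and the lowest small subunit mean of the 8 arrays.

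Rpl6, Rpl23a, Rpl19 and Rpl21 stood at the lower end of the large subunit, and the first 3 had levels below the array median. Rpl6, a protein of the outer face of the large subunit, had log2 levels of 2.88, 3.63, 3.38 and 3.98 on the control arrays and of 2.49, 2.06, 2.85 and 2.96 on the NFAT5-labelled arrays. Control replicate 1 falls among the NFAT5-labelled arrays, and all but 1 of the 8 values lie below the median probe set (3.76). The log2 fold change was -0.88 ± 0.25 (SE; 95% interval -1.44 to -0.31, unadjusted p = 0.00644, adjusted p = 0.185). RMA can compress differences of dim genes, which was not tested here.

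Rpl21 was brighter and its groups were separate. It stood at 5.16, 5.07, 4.76 and 4.80 on the control arrays and at 4.74, 4.34, 4.54 and 4.58 on the NFAT5-labelled arrays. Every control value is above every NFAT5-labelled one, with control replicate 3 and NFAT5 replicate 1 nearly level. The log2 fold change was -0.40 ± 0.12 (SE; adjusted p = 0.211). Rpl23a, at the tunnel exit where the signal recognition particle docks, was at -0.60 ± 0.43 (SE), with levels from 1.84 to 3.96 over the 8 arrays. Rpl19, which takes part in a bridge between the subunits, was at -0.44 ± 0.21 (SE), and Rpl5, which carries 5S RNA into the ribosome and binds Mdm2 when ribosome assembly fails, at -0.34 ± 0.26 (SE). The intervals of these 3 genes include 0.

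At the upper end of the large subunit stood Rpl7, Rpl27a, Rpl37 and Rpl39l. Rpl7 had levels of 5.13, 4.37, 5.35 and 5.20 on the control arrays and of 5.74, 5.04, 5.68 and 5.83 on the NFAT5-labelled arrays. NFAT5 replicate 2 lies among the control values and control replicate 2 below all others. The log2 fold change was 0.56 ± 0.23 (SE; 95% interval 0.034 to 1.09, adjusted p = 0.366). Rpl27a, whose long tract at the start is shown above, was at 5.60, 5.91, 5.78 and 5.84 on the control arrays and at 5.95, 6.07, 6.18 and 6.44 on the NFAT5-labelled arrays. Its groups do not overlap, and its log2 fold change was 0.38 ± 0.12 (SE; 95% interval 0.11 to 0.64, unadjusted p = 0.00992, adjusted p = 0.223).

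Rpl22, an RNA-binding protein that the ribosome can do without, was the third gene with separate groups. Its values were 5.42, 5.42, 5.42 and 5.26 on the control arrays and 5.44, 5.54, 5.61 and 5.74 on the NFAT5-labelled arrays. Control replicate 1 and NFAT5 replicate 1 are nearly level, and the log2 fold change was 0.20 ± 0.087 (SE; adjusted p = 0.378). Its paralog Rpl22l1, outside the naming rule, was at 0.081 (8.92 and 8.996, control and NFAT5-labelled means). Rpl27 had values of 4.67, 4.17, 4.34 and 4.33 on the control arrays and of 4.78, 4.598, 4.62 and 4.56 on the NFAT5-labelled arrays, a log2 fold change of 0.26 ± 0.11 (SE; adjusted p = 0.378). Control replicate 1 lies within the NFAT5-labelled values, and the other 3 control values are below them.

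**Figure D2:**
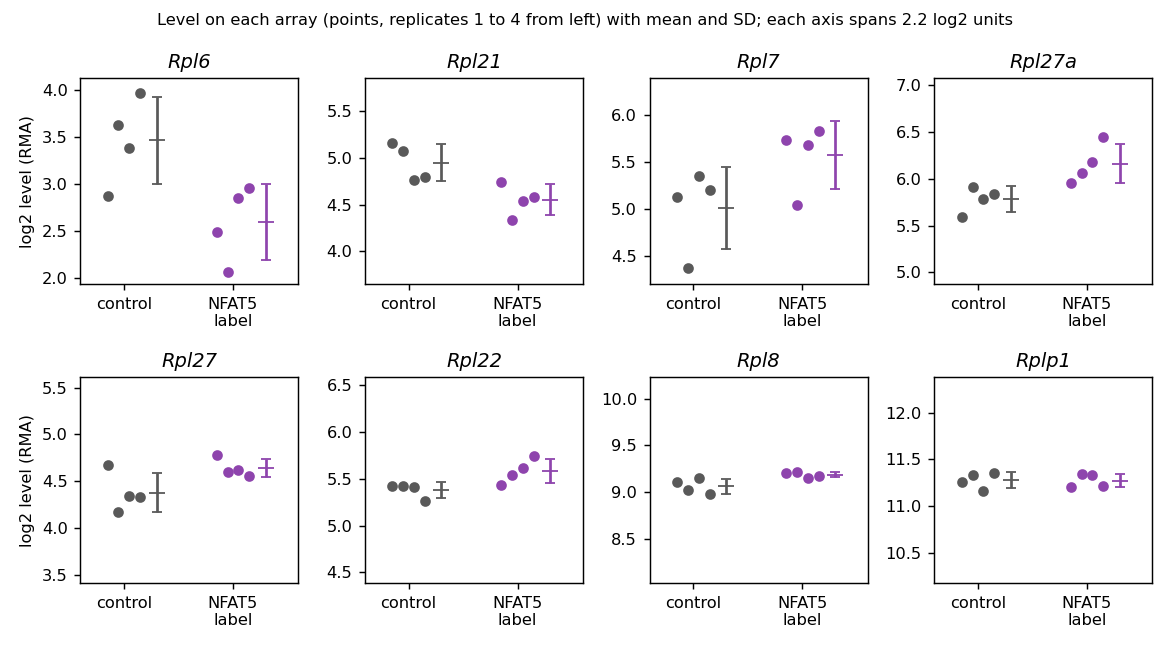
Log2 RMA level (y axis, spanning the same 2.2 units in each panel) of 8 large subunit genes on the 4 control and 4 NFAT5-labelled arrays (x axis, replicates 1 to 4 from left), with the mean and SD beside the points. The groups are separate for Rpl21, Rpl27a, Rpl22 and Rpl8 and overlap for Rpl6, Rpl7, Rpl27 and Rplp1.

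The brightest members had narrow intervals of the fold change. Whether differences at the top of the scale are compressed was not tested here. Among the 61 genes 7 had a mean level above 8, and for these 7 the 95% interval of the fold change lay within 1.5-fold in either direction. Rpl4, whose loop lines the exit tunnel, was at 11.45, 11.52, 11.48 and 11.49 on the control arrays and at 11.45, 11.55, 11.58 and 11.42 on the NFAT5-labelled arrays. Its log2 fold change was 0.013 ± 0.071 (SE; 95% interval -0.15 to 0.17). Rplp1, an acidic stalk protein that recruits elongation factors, stood at 11.25, 11.33, 11.17 and 11.36 on the control arrays and at 11.21, 11.34, 11.33 and 11.22 on the NFAT5-labelled arrays (log2 fold change -0.0026 ± 0.078 SE; 95% interval -0.18 to 0.17). The groups of both genes overlap. The stalk base gene Rplp0 was at 0.17 ± 0.13 (SE).

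Rpl8, which lies near the peptidyl transferase centre, was the fourth gene with separate groups, over a small distance. It was at 9.10, 9.02, 9.15 and 8.98 on the control arrays and at 9.21, 9.22, 9.16 and 9.17 on the NFAT5-labelled arrays, a log2 fold change of 0.12 ± 0.072 (SE; adjusted p = 0.537). The other genes near that centre, Rpl3 (0.11 ± 0.19 SE) and Rpl10 (0.21 ± 0.23 SE), the last of the large subunit proteins to join it, had levels below the array median. Rpl29 was at -0.14 ± 0.15 (SE), the widest error among the 7. Of 6 measured genes around the exit tunnel (Rpl4, Rpl17, Rpl19, Rpl22, Rpl23a and Rpl31) 2 had a fold change above 0 and 4 below, with a median of -0.16.

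The small subunit genes had no member with an unadjusted p under 0.05 (12.5% of all genes) and none with separate groups (8.78% of all genes). Their median SE was 0.19, against 0.15 in the large subunit, and a difference between the subunits was not tested. The lowest fold change was that of Rps14, a protein of the subunit's platform whose human gene is lost in the 5q- syndrome. It was at 4.36, 4.54, 3.96 and 3.47 on the control arrays and at 3.83, 4.32, 3.78 and 2.62 on the NFAT5-labelled arrays (log2 fold change -0.45 ± 0.35 SE, adjusted p = 0.667). The groups overlap apart from NFAT5 replicate 4, the lowest array. Then came Rps23 of the decoding centre (-0.24 ± 0.21 SE), Rps2 at the mRNA entry (-0.23 ± 0.32 SE) and Rps4x (-0.22 ± 0.18 SE).

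At the other end, Rps24, one of the genes mutated in Diamond-Blackfan anaemia, was at 2.34, 3.76, 3.61 and 3.64 on the control arrays and at 3.26, 3.72, 4.15 and 3.67 on the NFAT5-labelled arrays. Control replicate 1 stands far below the other 3 control arrays, and the log2 fold change was 0.36 ± 0.31 (SE, adjusted p = 0.697). Rps15 of the decoding centre was at 0.34 ± 0.41 (SE) and Rps26 at 0.17 ± 0.16 (SE). Of a fixed list of 11 genes mutated in that anaemia, which is not complete, 7 were measured. They had a median log2 fold change of -0.094, with 2 above and 5 below 0. On a short list of head and beak genes Rps19 was at -0.094, Rps20 at -0.11 and Rps29 at -0.053, and their intervals include 0. The remaining genes of that list were not analysed here. The list leaves out other genes of the head, so the shared sign is not read as a trait of the head.

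Rps9 and Rps21 were the small subunit genes with a level above 8. Rps9, near the mRNA entry, was at 9.24, 9.28, 9.29 and 9.22 on the control arrays and at 9.32, 9.27, 9.30 and 9.33 on the NFAT5-labelled arrays. Its residual SD of 0.029 was the smallest of the 61 genes, and its log2 fold change was 0.046 ± 0.065 (SE; 95% interval -0.10 to 0.19). Rps21 was at 9.66, 9.54, 9.65 and 9.57 and at 9.59, 9.62, 9.77 and 9.45, a log2 fold change of 0.00031 ± 0.086 (SE). Rps3, which guards the mRNA entry, was at 0.088 ± 0.10 (SE), and Rpsa, also known as the laminin receptor, at -0.13 ± 0.16 (SE).

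Paralog pairs were at hand for several members. Rps27 was at 5.62, 5.48, 5.40 and 5.67 on the control arrays and at 5.93, 6.09, 5.67 and 5.49 on the NFAT5-labelled arrays, with a log2 fold change of 0.25 ± 0.13 (SE). NFAT5 replicates 3 and 4 lie within the control range. Its paralog Rps27l, a target of p53, stood between 6.07 and 6.29 on all 8 arrays, a log2 fold change of 0.016 ± 0.073 (SE; 95% interval -0.15 to 0.18). Rpl3l, known from striated muscle, was at -0.057 and Rpl10l, known from testis, at 0.14, both with levels below the array median. Rpl39l, also known from testis, was at 0.29 ± 0.14 (SE; 95% interval -0.028 to 0.60). Rps4l was at -0.20 and Rpl6l at 0.082 (8.93 and 9.02, control and NFAT5-labelled means), a value set beside the -0.88 of Rpl6 for the shared name only.

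Dim probe sets were common in this family, as was a wide spread between arrays of the same group. The mean level was lower than an array's median probe set for 23 of the 61 genes, 15 of the large and 8 of the small subunit, although messages of the cytosolic ribosome are among the most abundant of a growing cell. Probe sets differ in how strongly they bind, so a low level on this scale need not be a low abundance. Likewise, the order of probe sets by level is no order of the genes by abundance. Which dim members have few transcripts in these cells was not tested. The dimmest large subunit probe sets were those of Rpl32l (1.78 in the control arrays), Rpl9 (1.83) and Rpl10 (1.95), and the dimmest of the small subunit those of Rps26 (1.84), Rps29 (2.16) and Rps28 (2.40). The mean level of the 5 unnamed probe sets ran from 3.79 to 8.99. Their log2 fold changes ran from -0.30 to 0.25, and 0 of them were called (0.777% of all genes).

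The residual SD, the spread within groups after the fit, had a median of 0.26 over the 61 genes and of 0.16 over all genes. It exceeded the third quartile of all genes for 36 of the 61 (59.0%). In 19 genes at least 1 group spanned more than 1 log2 unit. The extreme was Rps16, whose tail reaches the transfer RNA in the P site. It was at 3.59, 3.63, 2.004 and 2.72 on the control arrays and at 2.95, 2.78, 4.88 and 1.62 on the NFAT5-labelled arrays. NFAT5 replicates 3 and 4 hold the highest and the lowest of the 8 values. Its residual SD of 1.104 was the second largest of all 24704 genes, and its log2 fold change of 0.071 had a 95% interval from -1.32 to 1.47. Across the 61 genes the Spearman correlation of mean level and residual SD was -0.47, and across all genes -0.44; genes on the same arrays are not independent replicates.

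**Figure D3:**
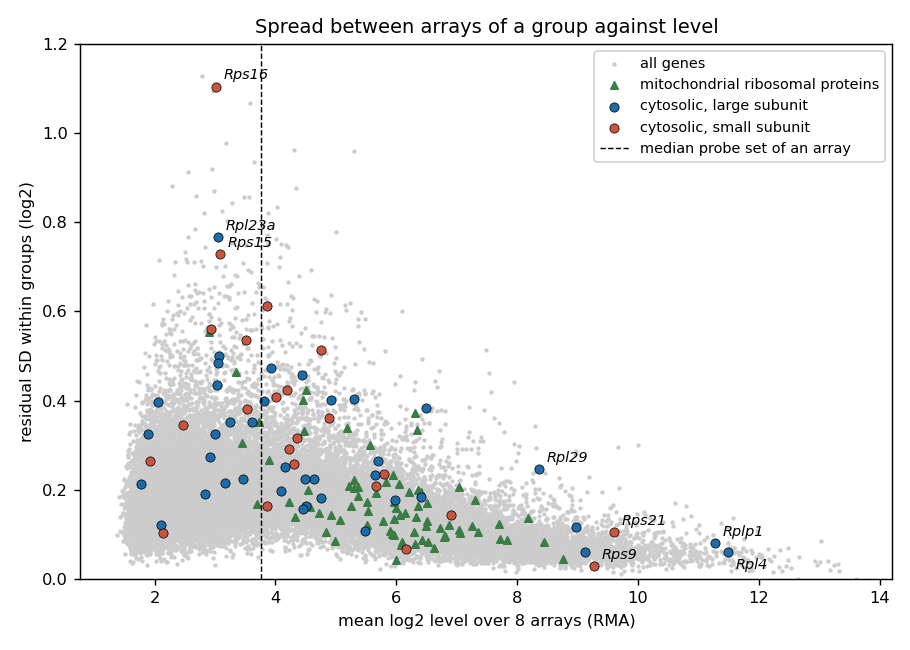
Residual SD within groups (y axis, log2) against the mean log2 level over the 8 arrays (x axis) for all 24704 genes (grey), the large and small subunit genes of the cytosolic ribosome and the 76 mitochondrial ribosomal protein genes; the dashed line is the median probe set of an array (3.76). Rps16, Rpl23a and Rps15 lie high among the dim genes, and Rps9, Rplp1 and Rpl4 lie low among the bright ones.

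The precision therefore differed within the family. The standard error of the log2 fold change ran from 0.065 to 0.62, with a median of 0.16, against 0.11 over all genes. The 95% interval lay within 1.5-fold in either direction for 34 of the 61 genes (55.7%), against 87.1% of all genes, and within 2-fold for 53. A 2-fold difference in either direction was thus inside the interval for 8 genes: Rpl6, Rpl7, Rpl23a, Rpl37, Rps14, Rps15, Rps16 and Rps24. Among the 38 genes at or above the array median 24 had an interval within 1.5-fold, and among the 23 below it 10. The median log2 fold change was -0.022 in the first set and 0.11 in the second.

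The mitochondrial ribosomal protein genes, which encode the ribosome of another compartment, had smaller residual SDs by their median, a difference that was not tested. Of 76 genes 5 lay below the array median, the median residual SD was 0.15, and the interval lay within 1.5-fold for 69 (90.8%). As in the cytosolic family 0 were called (0.777% of all genes). An unadjusted p under 0.05 was found for 11 of the 76 (12.5% of all genes) and separate groups for 6, 4 higher and 2 lower (8.78% of all genes), counts near those shares. The median log2 fold change was -0.0042. The ends were Mrps14 (-0.74 ± 0.18 SE, adjusted p = 0.129; a dim gene at 3.82 and 3.08, control and NFAT5-labelled means) and Mrpl42 (0.37 ± 0.16 SE).

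Genes that build the ribosome or work with it also gave 0 calls, which for lists of this size is near the share of all genes called (0.777%). Of 32 ribosome biogenesis genes 0 passed and 0 had an unadjusted p under 0.05 (12.5% of all genes). Their median log2 fold change was 0.022, from Pno1, a factor of small subunit maturation (-0.15), to the nucleolar protein gene Npm1 (0.25), and the interval lay within 1.5-fold for 30. Of 36 translation initiation and elongation factors 30 were measured and 0 passed, with 4 at an unadjusted p under 0.05 (12.5% of all genes). Their groups were separate for 7 with a higher and 3 with a lower mean (all genes 4.22% and 4.56%), and their median was 0.016. Eef1g, a subunit of elongation factor 1, was at 0.30 ± 0.092 (SE; adjusted p = 0.220) and Eif2s2 at -0.27 ± 0.087 (SE; adjusted p = 0.245). Tpt1 (-0.39 ± 0.19 SE), Eif4a1 and Eef1a1, whose messages are abundant in growing cells, were dim here too (2.44, 2.29 and 3.16 in the control arrays).

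The genes that set the translation of ribosomal protein messages gave 0 calls among 18 of 19 measured (0.777% of all genes), with a median of 0.062. Tsc1, a brake on mTORC1, was at 0.28 ± 0.099 (SE; adjusted p = 0.275) and Eif4ebp1, an mTORC1 substrate that represses initiation, at -0.22 ± 0.074 (SE; adjusted p = 0.260). Larp1 was at 0.084 ± 0.082 (SE), Mtor at -0.067 ± 0.11 (SE) and Myc at 0.13 ± 0.087 (SE). Of 12 related genes outside the naming rule 9 were measured and 0 were called (0.777% of all genes). Among them Rps19bp1 was at -0.15, Rpl36al at 0.24 and Fau, which encodes a small subunit protein fused to a ubiquitin-like part, at 0.054.

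**Figure D4:**
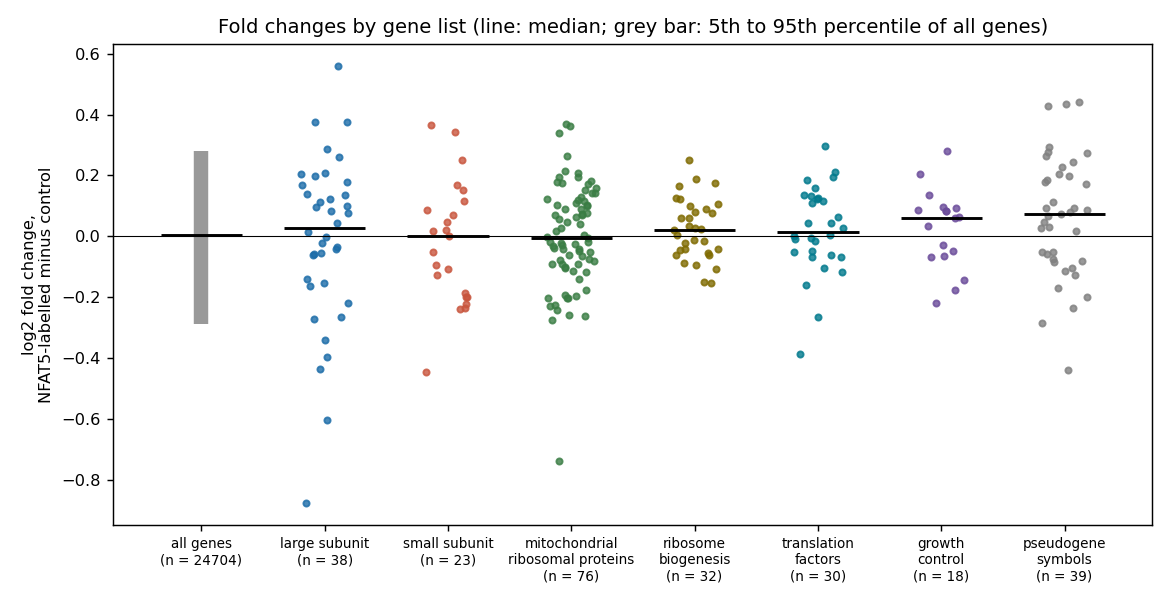
Log2 fold change, NFAT5-labelled minus control (y axis), of each measured gene (points) by list (x axis), with the median of each list as a black line; the grey bar at left spans the 5th to the 95th percentile of all genes. The 6 lists other than all genes and pseudogene symbols have medians between -0.0042 and 0.062, and Rpl6 and Mrps14 are the lowest points.

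Probe sets that carry the name of a ribosomal protein pseudogene were read beside their parent genes, a list chosen after the values were seen. Of the 61 members 43 have at least 1 gene so named in the reference table. Of 39 such probe sets 24 lay at or above the array median and 9 had a mean level above 8. None was called (0.777% of all genes), 6 of the 39 had an unadjusted p under 0.05 (12.5% of all genes), 25 of the 39 fold changes were above 0 (51% of all genes), and the median was 0.075. Among the 24 at or above the array median, 20 fold changes were above 0, 5 had an unadjusted p under 0.05 and the median was 0.14. Over all 12266 genes at or above that median, 50.3% of fold changes were above 0, 2140 genes had an unadjusted p under 0.05 and the median was 0.0011. Rpl34-ps2 was at 9.50 ± 0.117 (SD, n = 4) in the control arrays and 9.94 ± 0.0707 (SD, n = 4) in the NFAT5-labelled arrays, a log2 fold change of 0.44 ± 0.083 (SE; adjusted p = 0.0539), and its groups did not overlap. Rpl34 itself was at -0.27 ± 0.16 (SE). Rpl9-ps6 was at 0.028 ± 0.076 (SE) beside 0.14 ± 0.19 (SE) for Rpl9, and Rps2-ps5 at 0.075 ± 0.10 (SE) beside -0.23 ± 0.32 (SE) for Rps2. Which probes make up these sets, and how far a parent and its copies share them, is not given in the sources used here, so the values of a gene and its copies may not be independent.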

How the data were processed

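Values for 8 arrays came from the deposited table, which is on the log2 scale and was made by the authors with RMA, per the submitters' processing notes. No version, genome build or probe annotation is given in the sources used here. The sorted values of the arrays differed by at most 0.00183. Of 25428 probe sets, each keyed by an Entrez identifier, 24705 had 1 symbol in the platform table, none had several, and 723 were unnamed; the brightest probe set per symbol was kept, which left 24704 genes. Of the identifiers 25237 matched the RefSeq table of GRCm38.p6, and 0 symbols changed.

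Groups were compared with limma 3.58.1 (lmFit and eBayes, two-sided, no covariates) in R 4.3.3 on all genes and arrays, with Benjamini-Hochberg adjustment over all genes tested and a threshold of 0.05. Errors are SEs from that fit or SDs over 4 arrays. Lists are described by counts and medians. The number of arrays limits the precision. Scripts were tested on simulated data. The members and lists were chosen with earlier results of these data known. Genes named are those with separate groups, the ends of each subunit and list, the brightest and dimmest members, the genes of structural subgroups and Nfat5; others named were chosen after their values were seen. Alternatives were the replicate block, renewed quantile normalisation, median centring, a filter at the median, every probe set, a variance trend, array weights, leave-one-out and a stricter threshold. Unplanned ones added the 5 unnamed probe sets or left out the members that RefSeq lists as pseudogenes. A further unplanned one left out control replicate 3 and NFAT5 replicate 4 together. Figures were made in matplotlib 3.10.9 under Python 3.11.15.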

Additional observations from a re-analysis of the deposited data

Results flagged for a closer look

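In 9 of 126 groups of 4 values, 1 array stood apart from the other 3 by more than Dixon's 95% limit, and chance alone flags about 1 in 20 groups. Low values were those of Rpl17 on NFAT5 replicate 2 (3.97, others 4.46 to 4.52), Rpl22 on control replicate 4 (5.26, others 5.42), Rpl37 on NFAT5 replicate 1 (2.53, others 3.39 to 3.56), Rps24 on control replicate 1 (2.34, others 3.61 to 3.76) and Rps3 on NFAT5 replicate 1 (6.75, others 6.998 to 7.04). High values were those of Rpl3 on control replicate 4 (3.34, others 2.76 to 2.84), Rps13 on NFAT5 replicate 4 (4.28, others 3.89 to 3.95) and Rps15 on NFAT5 replicate 2 (4.23, others 2.85 to 3.02). The small subunit mean was highest on control replicate 1 (4.66, others 4.51 to 4.53).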

How the results depend on the processing

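Across 19 alternatives 0 ribosomal protein genes were called in either direction, and the lowest adjusted p of any of them was 0.0761. The number of all genes called, 192, was 497 above the median level, 781 with a variance trend and robust estimation, 42 at an adjusted p under 0.01, 30 leaving out control replicate 3 and NFAT5 replicate 4 together (chosen after seeing the data) and 56 to 88 with each array left out in turn. With the replicate block it was 14. Same-numbered arrays correlated at -0.079 to 0.055 in their deviations. The best partner had the same number for replicates 1 and 2 and another number for replicates 3 and 4. These correlations cannot decide whether arrays of the same number were paired. The subunit medians of the fold change moved by less than the pooled SD of the subunit's median level over arrays (0.16 large, 0.15 small). That bound is wide beside medians of 0.028 and 0.00031, so it does not show that they were stable. A sign changed in at least 1 alternative for 25 genes, none above 0.20 in size. Signs changed for Rplp1 with renewed quantile normalisation (0.011), Rps21 with median centring (-0.000832) and Rps13 with array weights (-0.048). Leaving out control replicate 3 and NFAT5 replicate 4 together changed those of Rpl10a (-0.027), Rpl15 (0.034), Rpl3 (-0.10), Rpl31 (0.16), Rpl32l (0.025), Rps13 (-0.17) and Rps26 (-0.074). With each array left out in turn, values on both sides of 0 were reached by Rpl10a from -0.117 to 0.269, Rpl15 from -0.145 to 0.0293, Rpl23 from -0.120 to 0.239, Rpl24 from -0.0100 to 0.284, Rpl28 from -0.0994 to 0.0998, Rpl3 from -0.0393 to 0.247, Rpl30 from -0.447 to 0.0313, Rpl31 from -0.124 to 0.0659, Rpl32l from -0.120 to 0.0741, Rpl37a from -0.109 to 0.0226, Rpl3l from -0.113 to 0.0424, Rpl4 from -0.0137 to 0.0404, Rpl41 from -0.114 to 0.224, Rpl9 from -0.0173 to 0.269, Rplp1 from -0.0397 to 0.0235, Rps13 from -0.143 to 0.271, Rps16 from -0.539 to 0.551, Rps19 from -0.176 to 0.0111, Rps21 from -0.0548 to 0.054, Rps25 from -0.0467 to 0.313, Rps27l from -0.0234 to 0.0514, Rps28 from -0.0331 to 0.276, Rps29 from -0.0936 to 0.00767 and Rps4l from -0.408 to 0.0531. Low signal limits 23 of the 61 genes. Their median residual SD was 0.35, against 0.23 in the 38 members at or above the array median. Their median absolute log2 fold change was 0.17, against 0.15. RMA can compress differences of dim genes, which was not tested here.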
